A study of Mus musculus with 16 samples.

Results

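Chemokines are small secreted proteins that draw leukocytes and microglia along a concentration gradient, and 10 of their genes are described here in the lumbar spinal cord of the mouse. The 10 genes are Ccl2, Ccl3, Ccl4, Ccl5, Ccl6, Ccl9, Ccl12, Cxcl9, Cxcl10 and Cxcl16, taken by gene symbol from the 23284 symbols of a count table. All 10 had enough counts to be tested when all groups were filtered together. Bulk RNA was sequenced from 16 mice aged 150 days, 4 per group, and the groups crossed an Atg7 genotype with the SOD1G93A transgene. The group cWT held Atg7 cWT mice without the transgene, cKO held Atg7 cKO mice without it, cWT_SOD1 held Atg7 cWT mice with SOD1G93A, and cKO_SOD1 held Atg7 cKO mice with SOD1G93A. Atg7 is an enzyme needed to form autophagosomes, SOD1G93A is a mutant human superoxide dismutase used to model amyotrophic lateral sclerosis, and cKO is taken to mean a conditional knockout. The title of the series places the loss of autophagy in motor neurons. The sources used here do not give the driver of the deletion, the promoter of the transgene or the strain. The design text calls the animals of a group biological replicates. Counts of Xist and Y-linked genes divided every group into 2 males and 2 females.

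CC chemokines carry their first cysteines side by side, and CXC chemokines carry a residue between them. Both kinds act through G-protein-coupled receptors on the target cell, with several ligands to most receptors. Ccl2 and Ccl12 attract monocytes through Ccr2, while Ccl3, Ccl4 and Ccl5 attract macrophages and T cells. Ccl6 and Ccl9 are ligands of Ccr1 made by myeloid cells. Cxcl9 and Cxcl10 are induced by interferons and attract T and NK cells through Cxcr3. Cxcl16 is a membrane-bound ligand of Cxcr6 that Adam10 and Adam17 can shed. In the nervous system, microglia and astrocytes are known sources of many of these proteins after injury.

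The promoters are shown because the genes moved together across the groups, and because NF-kB, AP-1, STAT and IRF factors are known regulators of chemokine genes. RefSeq promoters of assembly GRCm38.p6 (250 bases before to 50 after the start) were matched for 6 of the 10 genes, namely Ccl3, Ccl6, Ccl9, Ccl12, Cxcl9 and Cxcl10. The 250 bases before the start are printed for 3 of them, 5′ to 3′, with capitals on matches to an NF-kB motif (GGG and CC with any 5 bases between them) or an interferon-stimulated response element (ISRE, GAAA and GAAA with any 2 bases between them) on either strand. Cxcl10 was chosen for its large change, Cxcl9 as its neighbour, and Ccl3 as a CC gene of similar change with no such match. They lie on the minus strand at chr5:92348890-92349139 (Cxcl10), chr5:92328080-92328329 (Cxcl9) and chr11:83649379-83649628 (Ccl3).
Cxcl10: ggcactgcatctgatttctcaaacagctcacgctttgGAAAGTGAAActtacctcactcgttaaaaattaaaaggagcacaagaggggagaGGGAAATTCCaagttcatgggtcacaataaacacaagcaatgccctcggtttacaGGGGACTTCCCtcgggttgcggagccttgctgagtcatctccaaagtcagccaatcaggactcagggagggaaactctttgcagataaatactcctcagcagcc
Cxcl9: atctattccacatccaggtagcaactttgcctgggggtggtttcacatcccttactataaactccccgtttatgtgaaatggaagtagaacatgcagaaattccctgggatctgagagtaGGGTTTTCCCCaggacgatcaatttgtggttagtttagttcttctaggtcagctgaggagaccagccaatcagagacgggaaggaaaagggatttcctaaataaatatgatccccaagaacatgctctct
Ccl3: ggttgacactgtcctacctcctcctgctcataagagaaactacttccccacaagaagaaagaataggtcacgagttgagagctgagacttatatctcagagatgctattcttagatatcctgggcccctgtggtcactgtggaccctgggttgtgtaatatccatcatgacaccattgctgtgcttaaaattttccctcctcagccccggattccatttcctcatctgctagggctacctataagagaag

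Cxcl10 was the only one of the 6 promoters with an ISRE match, at −213 to −204 from the start, against 3.44% of all 32851 promoters of the same length. Its NF-kB matches lay at −159 to −150 and, as an overlapping pair of matches, between −104 and −94. Cxcl9 had overlapping NF-kB matches between −130 and −120, and Ccl9 had one at −35 to −26. NF-kB matches were thus in 3 of the 6 promoters, against 50.8% of all promoters. The AP-1 motif (TGANTCA, both strands) was in 3 of the 6, again Cxcl9, Cxcl10 and Ccl9, against 7.81% of all. The interferon-gamma motif (GAS, TTCNNNGAA, both strands) was in 0 of the 6, against 8.30%. Apart from the capitals, Cxcl9 and Cxcl10 shared a run of 11 bases (cagccaatcag), which began at −68 and −57 respectively. The neighbours Ccl9 and Ccl6 shared 13 bases (gccctccacttcc). A match is a description of the letters and not a site of binding.

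Library totals ran from 14989026 to 20892530 counts, and 15426 genes were tested. The count filter ran over all 16 libraries. Over only the 8 libraries of a comparison, it passed 10 of the 10 chemokine genes for cWT_SOD1 against cWT and 9 for cKO_SOD1 against cWT_SOD1. It passed 8 for cKO_SOD1 against cKO and 3 for cKO against cWT. Levels are given as CPM (counts after TMM scaling for library size), and group values are mean ± SD with n = 4. Differences are log2 fold changes from edgeR's quasi-likelihood F-test, with an approximate standard error (SE) and a p-value adjusted over all genes tested by Benjamini-Hochberg, and a gene was called at an adjusted p under 0.05. Atg7 differed between genotypes by −0.17 without the transgene (SE 0.12, adjusted p = 1) and by 0.17 with it (SE 0.12, adjusted p = 0.220), so whole-cord Atg7 counts checked no genotype label. Reads of the human transgene need not map to mouse Sod1, whose counts checked no label either. Lumbar Hox genes were detected in every group, at summed levels from 148 to 278 CPM. They fell in 5 of 6 cases in cWT_SOD1 against cWT (median −0.64) and rose in 5 of 6 in cKO_SOD1 against cWT_SOD1 (median 0.54). General neuron markers fell in 7 of 7 and rose in 7 of 7 in the same comparisons (medians −1.16 and 1.01), and their part in the chemokine changes was not tested. Motor neuron markers fell in 8 of 8 cases in both transgene comparisons. Over all genes tested, 33.1% were called lower in cWT_SOD1 against cWT and 2.48% lower in cKO_SOD1 against cKO. In cKO_SOD1 against cWT_SOD1 29.1% were called higher.

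All 10 chemokine genes rose with the transgene in Atg7 cWT mice, in cWT_SOD1 against cWT. Their median difference was 3.61 on the log2 scale, a 12.2-fold increase, and single genes ranged from 1.82 for Cxcl9 to 5.72 for Cxcl10. Of all genes tested 33.2% were called higher in this comparison, and the median over all genes was 0.01. The libraries of the groups did not overlap for 9 of the 10 genes, all higher, against 27.6% of genes tested. The 10 genes summed to between 8.85 and 13.9 CPM in the cWT libraries and to between 125 and 156 CPM in the cWT_SOD1 libraries. The plot of levels by library shows each gene on its own axis.

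**Figure D1:**
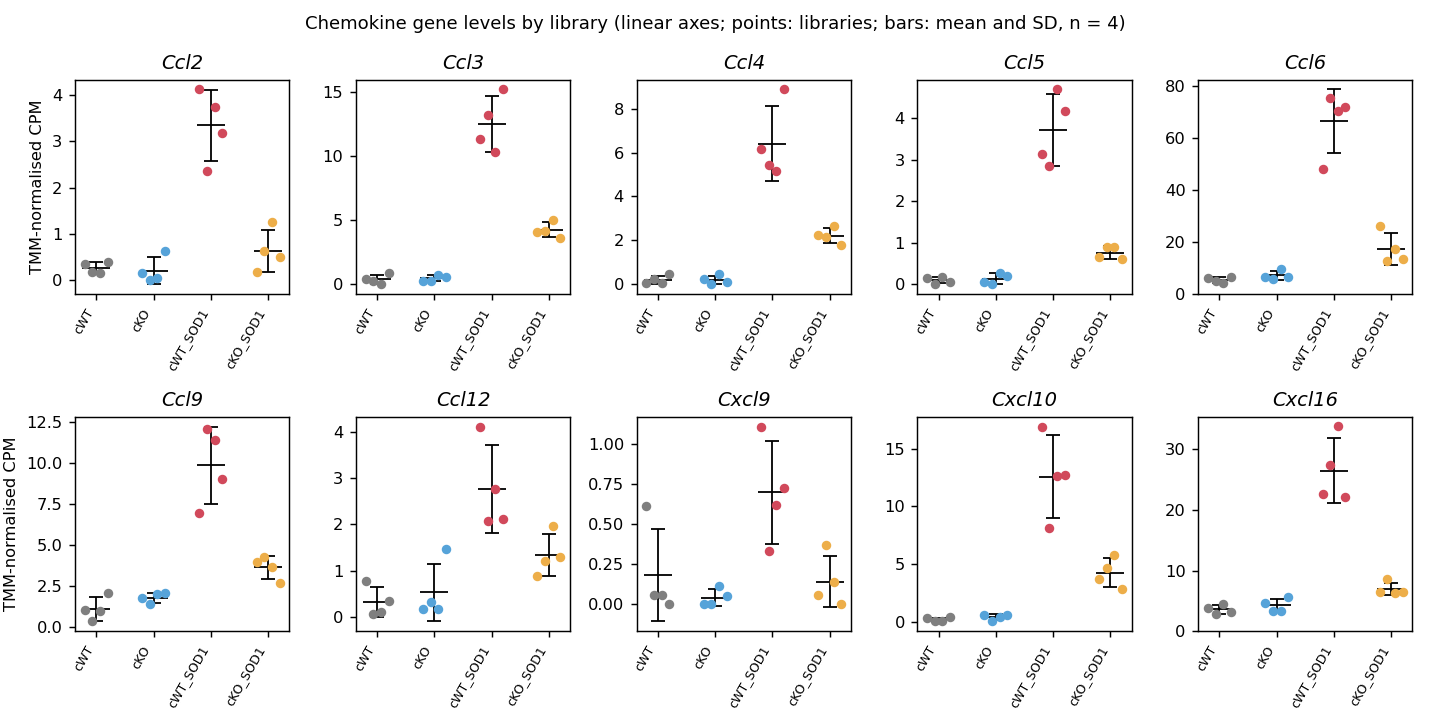
Level of each of the 10 chemokine genes in TMM-normalised CPM on linear axes that differ between panels. Points are libraries, and bars are the mean and SD of 4 libraries in each of the groups cWT, cKO, cWT_SOD1 and cKO_SOD1. The cWT_SOD1 libraries lie above all others for 9 genes, and Cxcl9 overlaps, with 1 cWT library at 0.614 CPM.

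Cxcl10, a T-cell attractant, had the largest fitted fold change of the 10 genes between cWT and cWT_SOD1 in the edgeR fit of all libraries, and its rank was not stable, since Ccl3 was above it in the limma fits and Ccl5 without cWT replicate 3. Cxcl10 stood at 0.307, 0.114, 0.111 and 0.388 CPM in cWT, 0.637, 0.0531, 0.443 and 0.585 in cKO, 16.9, 8.16, 12.6 and 12.7 in cWT_SOD1, and 3.75, 4.66, 5.82 and 2.83 in cKO_SOD1. Its cWT_SOD1 libraries were all above the others, and its cKO_SOD1 libraries were all above both groups without the transgene. The change from cWT to cWT_SOD1 was 5.72 (SE 0.40, adjusted p = 2.07e-09), or 52.5-fold. The 17 counts in cWT make this ratio imprecise, and the ratio of summed counts was 53.6 with a 95% interval from 33.3 to 92.5. Such intervals cover counting error only.

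Cxcl9, its neighbour on chromosome 5, stayed near the limit of detection. Cxcl9 was at 0.614, 0.0571, 0.0556 and 0 CPM in cWT, 0, 0, 0.111 and 0.0488 in cKO, 1.11, 0.335, 0.623 and 0.729 in cWT_SOD1, and 0.0585, 0.367, 0.14 and 0 in cKO_SOD1. The cWT library at 0.614 CPM lay above the lowest cWT_SOD1 library, so the groups overlapped. Cxcl9 rose by 1.82 (SE 0.73, adjusted p = 0.0352) from 14 to 46 summed counts. This call was lost without cWT replicate 2 (adjusted p = 0.0891), 3 (0.0916) or 4 (0.0903), and without cWT_SOD1 replicate 1 (0.0994) or 4 (0.0572). Without cWT replicate 1 the rise was 3.98 (adjusted p = 0.000937).

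Ccl3, Ccl4 and Ccl5, which attract macrophages and T cells, rose by similar amounts of 5.11 (SE 0.35, adjusted p = 1.85e-09), 5.01 (SE 0.42, adjusted p = 1.81e-08) and 5.18 (SE 0.44, adjusted p = 1.77e-08). The Ccl3 level was 0.358, 0.228, 0 and 0.831 CPM in cWT, 0.265, 0.265, 0.721 and 0.536 in cKO, 11.3, 13.2, 10.3 and 15.2 in cWT_SOD1, and 4.1, 4.14, 5.03 and 3.63 in cKO_SOD1. Both transgene groups were separate from the groups without it, and from each other. Ccl4 read 0.0512, 0.228, 0.0556 and 0.443 CPM in cWT, 0.212, 0, 0.443 and 0.0975 in cKO, 6.15, 5.42, 5.15 and 8.89 in cWT_SOD1, and 2.22, 2.15, 2.66 and 1.79 in cKO_SOD1. Ccl5 stood at 0.154, 0, 0.167 and 0.0554 CPM in cWT, 0.0531, 0, 0.277 and 0.195 in cKO, 3.14, 2.85, 4.7 and 4.18 in cWT_SOD1, and 0.644, 0.89, 0.885 and 0.597 in cKO_SOD1. All 3 genes showed the same order of groups, with cWT_SOD1 highest, cKO_SOD1 next and the other groups overlapping near 0. Their summed counts in cWT were 26, 14 and 7. Without cWT replicate 4 the rises of Ccl3 and Ccl4 were 5.92 and 5.78. The count ratio of cWT_SOD1 to cWT was therefore 35.0 for Ccl3 (95% interval 23.7 to 53.9), 32.9 for Ccl4 (19.4 to 60.8) and 38.7 for Ccl5 (18.5 to 97.3).

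Ccl6 was the most abundant of the 10 genes in every group. By library it was 6.04, 4.8, 4.17 and 6.26 CPM in cWT, 6.32, 5.73, 9.53 and 6.63 in cKO, 48.3, 75.5, 70.4 and 71.9 in cWT_SOD1, and 26.1, 12.6, 17.3 and 13.5 in cKO_SOD1. It rose by 3.64 (SE 0.23, adjusted p = 5.54e-10), or 12.5-fold, and its cKO_SOD1 libraries lay between the groups without the transgene and cWT_SOD1. The Ccl9 libraries gave 1.02, 0.343, 0.944 and 2.05 CPM in cWT, 1.75, 1.38, 2 and 2.05 in cKO, 6.95, 12.1, 11.4 and 9.02 in cWT_SOD1, and 3.98, 4.29, 3.63 and 2.69 in cKO_SOD1. Ccl9, the other Ccr1 ligand of myeloid cells, rose by 3.17 (SE 0.30, adjusted p = 5.81e-08), or 8.99-fold. Its libraries followed the same order of groups.

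Cxcl16, the membrane-bound chemokine, rose by 2.89 (SE 0.18, adjusted p = 6.94e-10), or 7.43-fold. Its libraries gave 3.74, 2.85, 4.5 and 3.16 CPM in cWT, 4.62, 3.34, 3.38 and 5.66 in cKO, 22.7, 27.4, 33.8 and 22.1 in cWT_SOD1, and 6.5, 8.54, 6.34 and 6.46 in cKO_SOD1. The cKO_SOD1 libraries lay just above both groups without the transgene, and far below cWT_SOD1. The sheddases Adam10 and Adam17 also rose from cWT to cWT_SOD1, by 0.49 (SE 0.04, adjusted p = 6.10e-09) and 0.93 (SE 0.09, adjusted p = 5.17e-08).

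Ccl2 and Ccl12, the Ccr2 ligands, rose by 3.58 (SE 0.52, adjusted p = 8.82e-06) and 3.06 (SE 0.58, adjusted p = 0.000174). Ccl2 stood at 0.358, 0.171, 0.167 and 0.388 CPM in cWT, 0.159, 0, 0.0554 and 0.634 in cKO, 4.12, 2.35, 3.74 and 3.18 in cWT_SOD1, and 0.176, 0.628, 1.26 and 0.497 in cKO_SOD1. For Ccl12 the libraries gave 0.768, 0.0571, 0.111 and 0.332 CPM in cWT, 0.159, 0.318, 0.166 and 1.46 in cKO, 4.12, 2.07, 2.78 and 2.12 in cWT_SOD1, and 0.878, 1.2, 1.96 and 1.29 in cKO_SOD1. In both genes cKO replicate 4 stood above the other cKO libraries and overlapped cKO_SOD1. In both, all cWT_SOD1 libraries were higher than every other library. Without cWT replicate 1 the rise of Ccl12 was 3.99 (adjusted p = 8.76e-05).

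With the transgene, 9 of the 10 genes were lower in Atg7 cKO mice, in cKO_SOD1 against cWT_SOD1. Their median difference was −1.75 on the log2 scale, or 3.35-fold lower, with single genes from −2.33 for Ccl2 to −1.03 for Ccl12. Of all genes tested 29.1% were called lower in this comparison, and the median over all genes was −0.01. The libraries did not overlap for 9 genes, all lower, against 24.1% of genes tested. This comparison shares the cWT_SOD1 libraries with the one above, so the values of the 2 comparisons are not independent of each other. The 10 genes summed to between 33.3 and 48.4 CPM in cKO_SOD1.

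Ccl2 fell by 2.33 (SE 0.44, adjusted p = 0.000195) and Ccl5 by 2.28 (SE 0.30, adjusted p = 5.75e-06), which are 5.02-fold and 4.87-fold. Ccl6 fell by 1.94 (SE 0.20, adjusted p = 4.08e-07) and Cxcl16 by 1.93 (SE 0.17, adjusted p = 9.38e-08). The smaller falls were those of Ccl3 at 1.56 (SE 0.25, adjusted p = 3.7e-05), Cxcl10 at 1.55 (SE 0.26, adjusted p = 6.62e-05), Ccl4 at 1.53 (SE 0.29, adjusted p = 0.000204) and Ccl9 at 1.44 (SE 0.25, adjusted p = 9.96e-05). Ccl3, Ccl4 and Cxcl10 thus had smaller fitted falls than Ccl2, Ccl5, Ccl6 and Cxcl16, and these differences between genes were not tested. Cxcl9 fell by 2.23 (SE 0.76, adjusted p = 0.0180), from 46 to 11 summed counts. That call was lost without cWT_SOD1 replicate 1 (adjusted p = 0.0530) and without cKO_SOD1 replicate 4 (adjusted p = 0.0518), and the difference was −3.22 without cKO_SOD1 replicate 2. Ccl12 differed by −1.03 (SE 0.46, adjusted p = 0.0626) and was not called, although its libraries did not overlap. It passed without cWT replicate 1 (adjusted p = 0.0481), cKO replicate 4 (0.0179) or cKO_SOD1 replicate 3 (0.0433).

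**Figure D2:**
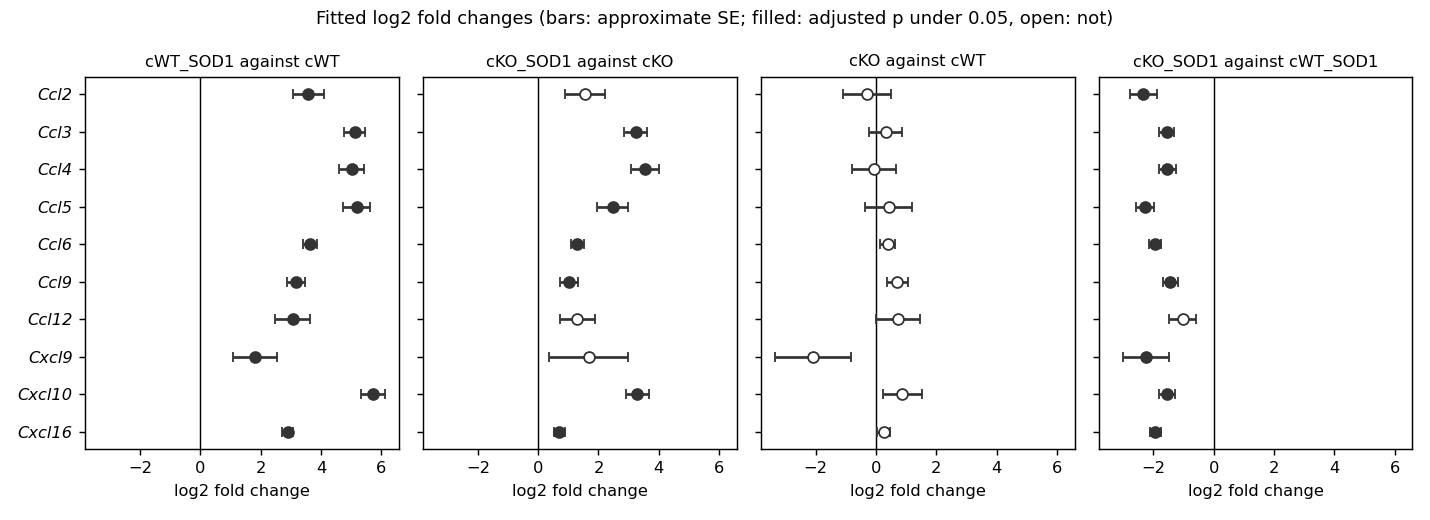
Fitted log2 fold change of each chemokine gene in 4 comparisons, with bars of 1 approximate SE. Filled points had an adjusted p under 0.05 (10, 7, 0 and 9 genes from left to right) and open points did not.

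In Atg7 cKO mice the transgene raised 7 of the 10 genes, in cKO_SOD1 against cKO, against 4.8% of all genes tested called higher. The median difference of the 10 genes was 1.61 on the log2 scale, or 3.06-fold, and that of all genes was 0. Ccl4 rose by 3.54 (SE 0.47, adjusted p = 0.000126; 4.33 without cKO replicate 3), Cxcl10 by 3.29 (SE 0.39, adjusted p = 4.04e-05) and Ccl3 by 3.23 (SE 0.37, adjusted p = 2.87e-05). Ccl5 rose by 2.47 (SE 0.51, adjusted p = 0.00533) and Ccl6 by 1.3 (SE 0.22, adjusted p = 0.00126). Ccl9 at 1.02 (SE 0.29, adjusted p = 0.0420) and Cxcl16 at 0.70 (SE 0.19, adjusted p = 0.0310) passed narrowly, and 9 and 4 of the 16 fits that leave out 1 library ended their calls. For Ccl9 these were the fits without cWT replicate 1 (adjusted p = 0.0544) or 3 (0.0543), without cKO replicate 1 (0.103), 2 (0.131), 3 (0.0766) or 4 (0.0619), and without cKO_SOD1 replicate 1 (0.0890), 2 (0.113) or 3 (0.0861). For Cxcl16 they were the fits without cKO replicate 1 (adjusted p = 0.0568), 2 (0.110) or 3 (0.102), and without cKO_SOD1 replicate 2 (0.104). The libraries did not overlap for 7 genes, all higher, against 9.91% of genes tested.

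Ccl2 at 1.55 (SE 0.66, adjusted p = 0.181) and Ccl12 at 1.3 (SE 0.57, adjusted p = 0.193) were not called in cKO_SOD1 against cKO. Without cKO replicate 4, which held 13 of the 17 Ccl2 counts and 30 of the 42 Ccl12 counts of its group, they passed at 3.08 (adjusted p = 0.0211) and 2.61 (adjusted p = 0.0101). Cxcl9 had 3 counts in cKO and 11 in cKO_SOD1, a ratio of 3.6 with a counting interval from 0.950 to 20.1, and was not called (adjusted p = 0.492). In fits of 1 sex, 2 of the 10 genes were called higher in males, beside 62 of all 15477 genes tested, and 4 of 9 in females, beside 277 of 15543.

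Without the transgene no chemokine gene was called in cKO against cWT, where 0.0259% of all genes tested were called by edgeR. The count filter passed 3 of the 10 when only these 8 libraries were used, so most had low counts in both groups. An unadjusted p under 0.05 was reached by 0 of the 10 in edgeR, the lowest being 0.0545 for Ccl9, and DESeq2 called 0 of the 8 that it tested. The 10 differences ran from −2.09 for Cxcl9 to 0.88 for Cxcl10, with a median of 0.36. The groups overlapped for all 10, while 1.55% of genes tested were higher and 1.93% lower without overlap. Cxcl9 had 14 counts in cWT, 12 of them in 1 library, and 3 in cKO. Ccl6, the gene with the most counts, differed by 0.40 (SE 0.25). The 95% counting interval of the ratio of summed counts lay above 1 for Ccl6 (1.15 to 1.5), Ccl9 (1.24 to 2.19), Cxcl10 (1.01 to 3.56) and Cxcl16 (1.02 to 1.42). It lay below 1 for Cxcl9 (0.0379 to 0.736), and held 1 for the rest. Such intervals leave out the spread between animals, which the edgeR test includes. At the genes with the fewest counts small differences may have gone undetected.

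The interaction asks whether the transgene effect differed between genotypes, and it was lower in cKO for 6 of the 10 genes, against 21.8% of all genes tested. These were Ccl5 at −2.71 (SE 0.88, adjusted p = 0.0186), Cxcl10 at −2.43 (SE 0.69, adjusted p = 0.00870), Ccl6 at −2.34 (SE 0.32, adjusted p = 2.58e-05), Cxcl16 at −2.19 (SE 0.27, adjusted p = 1.06e-05), Ccl9 at −2.15 (SE 0.43, adjusted p = 0.000593) and Ccl3 at −1.88 (SE 0.61, adjusted p = 0.0188). Ccl3 and Ccl5 lost the call without cKO replicate 3 (adjusted p = 0.0755 and 0.115) and without cKO replicate 4 (0.0505 and 0.0716), and Ccl3 stood at −2.69 without cWT replicate 4. Ccl2 at −2.03 (adjusted p = 0.0902), Ccl12 at −1.76 (adjusted p = 0.107), Ccl4 at −1.47 (adjusted p = 0.163) and Cxcl9 at −0.14 (adjusted p = 0.996) were not called. Ccl2 passed without cKO replicate 2 (adjusted p = 0.0348) or cKO_SOD1 replicate 3 (0.0299), and Ccl12 without cWT replicate 1 (0.0310). A gene not called here is not shown to respond alike in the genotypes.

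Levels were compared between genes on the FPKM scale, which divides by transcript length. In cWT the order was led by Ccl6 at 4.23 ± 0.758 FPKM and Cxcl16 at 1.64 ± 0.344, and the other 8 genes were all under 1 FPKM. Ccl6 alone made up 45.7% of the summed FPKM of the 10 genes, and Cxcl10 was ninth with 2.72%. In cWT_SOD1 the order was Ccl6 at 54.5 ± 9.38, Ccl3 at 20.6 ± 3.55, Cxcl10 at 14.2 ± 4.36, Ccl4 at 13.7 ± 3.65, Cxcl16 at 13.2 ± 2.61 and Ccl5 at 11.6 ± 2.46 FPKM. Ccl12 followed at 8.37 ± 3.35, Ccl2 at 5.53 ± 1.33, Ccl9 at 3.55 ± 0.794 and Cxcl9 at 0.263 ± 0.125 FPKM. From Cxcl10 to Ccl5, neighbours in this order differed by less than the SD of either gene. The share of Ccl6 was 37.5% in cWT_SOD1 and 32.9% in cKO_SOD1, and that of Cxcl10 was 9.79% and 11.3%. The shares of Ccl3 were 6.42% in cWT, 5.38% in cKO, 14.1% in cWT_SOD1 and 16.4% in cKO_SOD1. The summed level was 9.26 ± 2.65, 12 ± 3.83, 145 ± 7.74 and 42.8 ± 7.25 FPKM in the same order of groups.

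**Figure D3:**
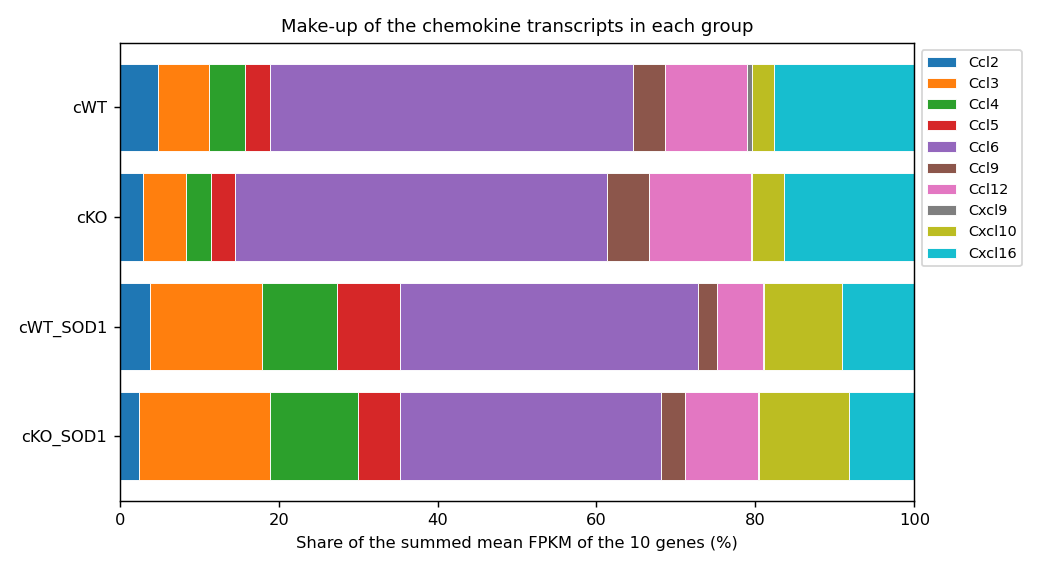
Share of each chemokine gene in the summed mean FPKM of the 10 genes, in percent, for the 4 groups. Ccl6 (purple) and Cxcl16 (light blue) take most of the bar without the transgene, and Ccl3 (orange), Ccl4 (green) and Cxcl10 (olive) take larger shares in both transgene groups.

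The libraries of a group did not rank alike over the 10 genes. Replicate 1 of cWT_SOD1 was the highest of its group in Ccl2, Ccl12, Cxcl9 and Cxcl10 and the lowest in Ccl6 and Ccl9. Replicate 2 was the reverse, lowest in Ccl2, Ccl5, Ccl12, Cxcl9 and Cxcl10 and highest in Ccl6 and Ccl9. In cKO, replicate 2 was the lowest in 8 of the 10 genes, and in cKO_SOD1 replicate 4 was the lowest in 6. Over the deviations of the 16 libraries from their group means, the Pearson correlation of 2 members had a median of 0.32 over 45 pairs. It was highest for Ccl2 with Ccl12 (0.73) and Ccl2 with Cxcl10 (0.72), and Ccl3 with Ccl4 stood at 0.62. It was above 0 in 36 of the 45 pairs, and lowest at −0.35 for Cxcl16 with Ccl3 and with Ccl4. These values are descriptive, and the points share library, depth and the group means removed.

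Microglial markers moved in the same directions as the chemokine genes. Their 14 genes, among them Tmem119, P2ry12 and Csf1r, all rose in cWT_SOD1 against cWT, with a median of 2.59 on the log2 scale, and all fell in cKO_SOD1 against cWT_SOD1, with a median of −1.71. In cKO_SOD1 against cKO 12 of 14 rose, with a median of 0.86. Over all genes tested, 33.2% were called higher, 29.1% lower and 4.8% higher in these comparisons, in the order given. Their summed level was 419 to 471 CPM in cWT, 403 to 548 in cKO, 2410 to 4090 in cWT_SOD1 and 861 to 923 in cKO_SOD1, and none was at 0. In bulk tissue a change in the number of cells of a type and a change in RNA per cell cannot be told apart. The part of this shift in the chemokine changes was not tested, and the chemokine counts are set beside the marker counts below as a description.

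Per 1000 counts of the 14 markers, the chemokine genes together gave 26.3 ± 5.37 counts in cWT, 31.4 ± 3.13 in cKO, 43.2 ± 6.78 in cWT_SOD1 and 46.8 ± 6.46 in cKO_SOD1. Both transgene groups were above their counterparts without overlap, and overlapped each other. Cxcl16 overlapped over all groups with these 14 markers, at 8.08 ± 1.68, 8.86 ± 1.58, 7.83 ± 1.39 and 7.87 ± 1.37 in that order of groups. Ccl3 went from 0.788 ± 0.740 in cWT to 3.78 ± 1.02 in cWT_SOD1, and from 0.919 ± 0.406 in cKO to 4.77 ± 0.666 in cKO_SOD1. Cxcl10 went from 0.518 ± 0.303 to 4 ± 2.14, and from 0.869 ± 0.528 to 4.82 ± 1.47. Between cKO_SOD1 and cWT_SOD1 9 of the 10 genes overlapped, and Ccl9 did not, being 1.44 times higher in cKO_SOD1. The share of all genes tested without overlap was not computed on this per-marker scale.

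The ratio of cKO_SOD1 to cWT_SOD1 depended on which markers were used. For the 10 genes together it was 1.08 with all 14 markers, 0.902 without C1qa and C1qb, 0.739 with Csf1r alone and 0.536 with Tmem119 alone. These other denominators were chosen after seeing the data. With Tmem119 alone, 4 of the 10 genes (Ccl5, Ccl6, Ccl9 and Cxcl16) did not overlap between cKO_SOD1 and cWT_SOD1, and all 4 were lower in cKO_SOD1. Ccl9 thereby turned from 1.44 with the 14 markers to 0.701. The share of all genes tested without overlap was not computed on the Tmem119 scale either. Whether 4 of 10 exceeds that share is therefore not known. For cWT_SOD1 over cWT the ratio of the 10 genes together was 1.65 with the 14 markers, 2.64 with Csf1r and 5.33 with Tmem119. For Cxcl16 it was 0.970, with overlap, and then 1.56 and 3.15, both without overlap.

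**Figure D4:**
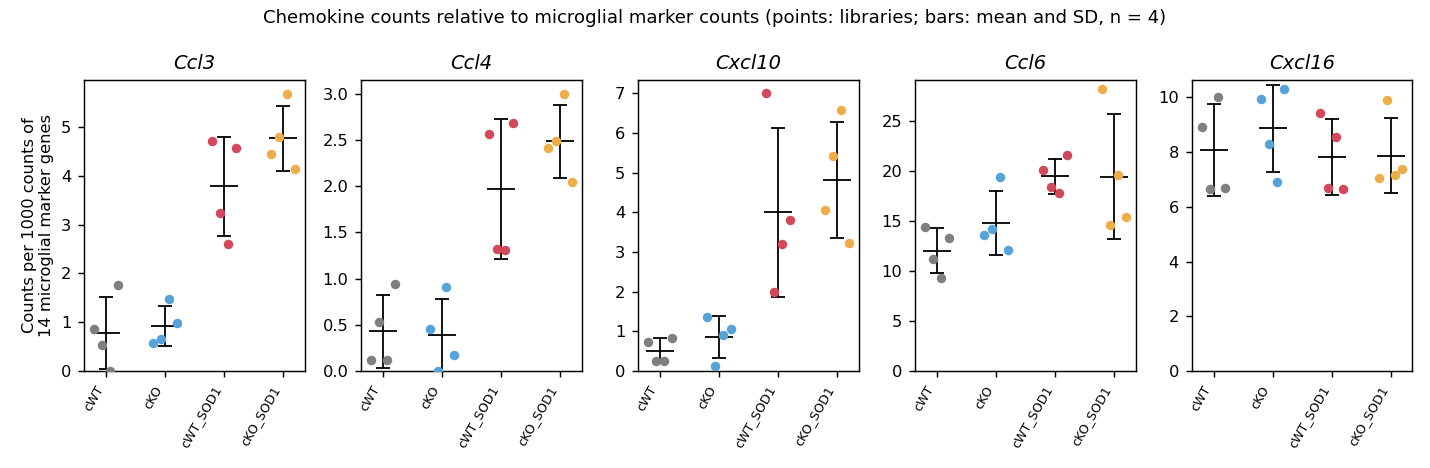
Counts of 5 chemokine genes per 1000 counts of 14 microglial marker genes, on linear axes from 0. Points are libraries and bars are the mean and SD of 4 libraries. Ccl3, Ccl4 and Cxcl10 are higher in both transgene groups, and Cxcl16 overlaps over the groups with these markers.

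Markers of T cells, NK cells, monocytes and neutrophils had few counts. Of the 10 T-cell markers, 3 (Cd4, Lck and Cd28) had enough counts, and their whole list summed to 0.833 to 1.74 CPM in cWT, 0.887 to 1.17 in cKO, 5.61 to 6.03 in cWT_SOD1 and 1.29 to 2.33 in cKO_SOD1. Cd8a was at 0 in cWT. None of the 8 NK-cell markers had enough counts to be tested, and their sum was 1.05 to 1.53 CPM in cWT_SOD1 against at most 0.556 in every other group. The 7 monocyte markers summed to 25.5 to 32.5 CPM in cWT and 29.1 to 36.3 in cWT_SOD1, with 0 called in that comparison. For neutrophils 0 of 3 tested markers were called in any comparison. Astrocyte markers rose in 7 of 9 cases and fell in 1 in cWT_SOD1 against cWT, and fell in 7 of 9 and rose in 1 in cKO_SOD1 against cWT_SOD1. Perivascular macrophage markers rose in 6 of 6 and fell in 5 of 6 in the same comparisons. Over all genes tested, 33.2% were called higher and 33.1% lower in cWT_SOD1 against cWT. In cKO_SOD1 against cWT_SOD1 29.1% were called in each direction. The part of any of these cell types in the chemokine changes was not tested.

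Of the 18 chemokine receptor genes, 7 had enough counts. In cWT_SOD1 against cWT 5 of the 7 rose, beside 33.2% of all genes tested called higher. Ccr1, the receptor of Ccl3, Ccl5, Ccl6 and Ccl9, rose by 2.09 (SE 0.41, adjusted p = 0.000262). Cx3cr1, the fractalkine receptor of microglia, rose by 2.32 (SE 0.11, adjusted p = 1.58e-11) and Cxcr4, the receptor of Cxcl12, by 2.90 (SE 0.25, adjusted p = 2.07e-08). Ccr2 differed by 0.84 (SE 0.43, adjusted p = 0.0975), from 0.445 ± 0.2 to 0.811 ± 0.175 CPM, and passed without cKO replicate 4 (adjusted p = 0.0275). The smaller change of the receptor than of its ligands Ccl2 and Ccl12 was not itself tested.

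In cKO_SOD1 against cWT_SOD1 6 of the 7 receptors fell, beside 29.1% of all genes tested called lower. Among the 6, Ccr1 fell by 1.47 (SE 0.38, adjusted p = 0.00322) and Ccr2 by 1.20 (SE 0.45, adjusted p = 0.0285). The Ccr2 call was lost without cWT_SOD1 replicate 3 (adjusted p = 0.0730) or 4 (0.0513) and without cKO_SOD1 replicate 2 (0.0791). In cKO_SOD1 against cKO 2 of 7 rose, beside 4.8% of all genes tested, among them Cx3cr1 by 0.89 (SE 0.10, adjusted p = 3.96e-05). Cxcr3, the receptor of Cxcl9 and Cxcl10, had 6, 1, 25 and 9 summed counts in cWT, cKO, cWT_SOD1 and cKO_SOD1 and was not tested. Cxcr6, the receptor of Cxcl16, had 16, 14, 39 and 18, and Ccr3 had 1, 0, 4 and 0. Among atypical receptors, which bind chemokines without classical signalling, Ccrl2 rose by 2.05 (SE 0.25, adjusted p = 1.31e-06) in cWT_SOD1 against cWT, and Darc, a binder of inflammatory chemokines, fell by 0.98 (SE 0.06, adjusted p = 2.43e-10).

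Of the 28 other chemokine ligands, 12 had enough counts, and their median difference was 0.12 on the log2 scale in cWT_SOD1 against cWT. Ccl7, Ccl8, Ccl11 and Cxcl14 rose and Cxcl5 and Cx3cl1 fell, of which Ccl7 and Cxcl5 were named after their values were seen. That was 4 of 12 higher, near the 33.2% of all genes tested, and 2 of 12 lower, beside 33.1%. Ccl8 rose by 3 (SE 0.37, adjusted p = 1.6e-06) and Ccl11, an eosinophil attractant, by 2.20 (SE 0.25, adjusted p = 4.95e-07). Cx3cl1, the neuronal ligand of Cx3cr1, fell by 0.84 (SE 0.08, adjusted p = 6.33e-08), from 253 ± 11.3 to 142 ± 18.8 CPM. In cKO_SOD1 against cKO 0 of the 12 were called, beside 7.28% of all genes tested and 7 of the 10 genes described above. The 10 genes and this list were chosen with earlier results of these data known. That choice may itself have made the contrast, which was not tested. In cKO_SOD1 against cWT_SOD1 Ccl7, Ccl8, Ccl11 and Cxcl14 fell and Cx3cl1 rose by 0.71 (SE 0.08, adjusted p = 9.49e-07). That was 4 of 12 lower and 1 higher, beside 29.1% of all genes tested in each direction.

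By position (mm9), 8 of the 10 genes lie on chromosome 11 and 2 on chromosome 5. Ccl2 (81849079 to 81850954) and Ccl12 (81915347 to 81916901) bound a stretch of 67.8 kb that also holds Ccl7 and Ccl11. Ccl5 (83339281 to 83344020), Ccl9 (83386419 to 83392138), Ccl6 (83401388 to 83406589), Ccl3 (83461345 to 83462880) and Ccl4 (83476086 to 83478185) lie within 139 kb. Cxcl16 (70267736 to 70273486) lies apart from them. On chromosome 5 Cxcl9 (92750357 to 92757105) and Cxcl10 (92775665 to 92777915) lie within 27.6 kb. Each value is a whole-gene count over those spans.

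Along chromosome 11 all 11 chemokine genes tested rose in cWT_SOD1 against cWT, by 2.20 at Ccl11 to 5.18 at Ccl5. Beside them, 33.2% of all genes tested were called higher. Ccl7, a further Ccr2 ligand, rose by 3.83 (SE 0.63, adjusted p = 3.68e-05). The size of the change varied along the chromosome: Ccl5, Ccl3 and Ccl4 rose by more than 5 on the log2 scale, and Ccl9 and Ccl6, which lie between Ccl5 and Ccl3, by 3.17 and 3.64. Some neighbours had similar fitted changes, among them Ccl3 (5.11) with Ccl4 (5.01) and Ccl12 (3.06) with Ccl8 (3.0). On chromosome 5 Cxcl10 rose by 5.72 and Cxcl9 by 1.82, and Cxcl11, the next gene, had 4, 6, 4 and 8 summed counts in the 4 groups and was not tested. Differences in change between neighbouring genes were not tested.

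**Figure D5:**
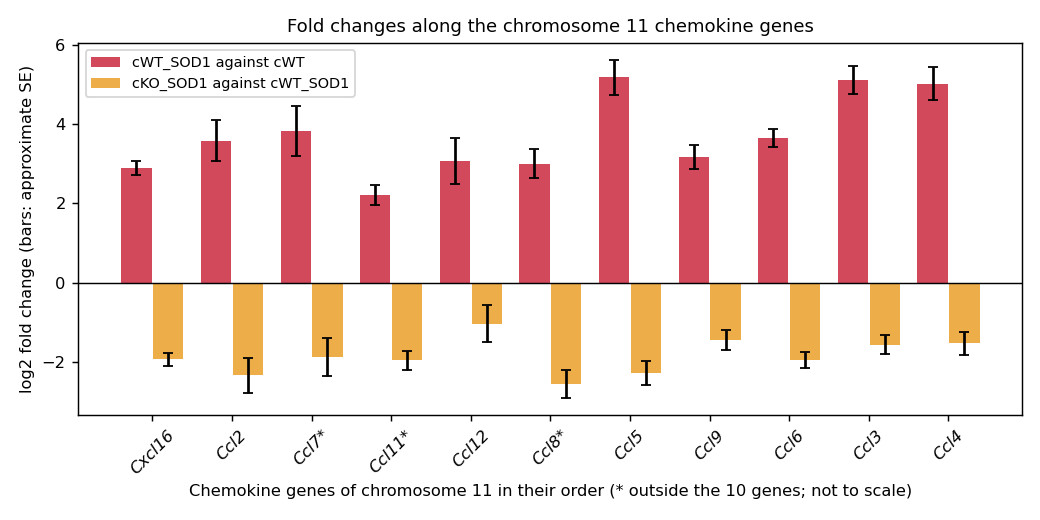
Log2 fold change of the chemokine genes of chromosome 11 in their order along the chromosome (not to scale), with bars of 1 approximate SE. Red bars are cWT_SOD1 against cWT and orange bars are cKO_SOD1 against cWT_SOD1. All 11 red bars are above 0 and all orange bars are below it, of which Ccl12 was not called.

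A list of 16 genes held inducers and carriers of chemokine transcription, and also the NF-kB inhibitor Nfkbia. Of these 11 had enough counts, and all 11 rose in cWT_SOD1 against cWT, with a median of 0.87 on the log2 scale. Beside them, 33.2% of all genes tested were called higher. The cytokine Il1a rose by 2.80 (SE 0.29, adjusted p = 1.87e-07), the NF-kB subunit Nfkb2 by 1.67 (SE 0.14, adjusted p = 1.52e-08) and the interferon factor Irf1 by 1.19 (SE 0.15, adjusted p = 1.43e-06). In cKO_SOD1 against cKO 4 rose (Il1a, Irf7, Nfkb2 and Rela), beside 4.8% of all genes tested. In cKO_SOD1 against cWT_SOD1 9 fell, beside 29.1% of all genes tested. Irf7 at −0.46 (SE 0.23, adjusted p = 0.0946) and Stat2 at −0.06 (SE 0.09, adjusted p = 0.602), both named after their values were seen, were not called there. The cytokines Tnf, Il1b, Il6, Ifng and Ifnb1 had too few counts to test, with 55 Tnf counts and 59 Il1b counts summed over cWT_SOD1 (chosen after their values were seen).

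The genes most like each member were those with the smallest root-mean-square difference of centred log2 CPM over the 16 libraries, among 14360 genes that averaged 1 CPM or more. For Cxcl16 they were Olfml3 (0.203) and Cd37 (0.204), and for Ccl6 they were Irf8 (0.234) and Cd53 (0.242). Ccl5 was nearest to AI607873 (0.368) and Fam46c (0.430), and Rac2 (0.379) was among the nearest to Ccl9. Ccl3 was nearest to Pdcd1 (0.504) and Niacr1 (0.574), Ccl4 to Il1rn (0.603) and Gm885 (0.616), and Cxcl10 to Niacr1 (0.609) and Bcl3 (0.616). Ccl2 was nearest to Cxcr4 (0.577) and Itgal (0.620), Ccl12 to Gbp2 (0.628) and Gngt2 (0.669), and Cxcl9 to Tnni1 (0.670) and Rab32 (0.730). Cxcl16 and Ccl6, with the most counts, had the smallest distances, and Cxcl9, with the fewest, had the largest. The order did not follow the counts throughout, since Ccl5 (0.368) had a smaller distance than Cxcl10 (0.609), which had more counts.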

How the data were processed

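Per the labels' protocols, total RNA of the lumbar cord (Trizol, then columns) was selected by poly-A pulldown before Illumina TruSeq library preparation. The submitters' processing notes name bcl2fastq 1.8.4, TopHat2 2.0.4, Cufflinks 2.0.2 and mm9, with no role for each. The authors deposited raw counts per gene symbol and FPKM values, the latter scaled by length and library size. Which tool counted the reads, and whether by strand, is not given in the sources used, and reads shared by overlapping or similar genes may have gone to either gene.

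The test was that of edgeR 4.0.16 (R 4.3.3) with a quasi-likelihood F-test (TMM, filterByExpr, all 16 libraries, 1 coefficient per group), with Benjamini-Hochberg adjustment over 15426 genes. The SE is approximate, the size of a log2 fold change over the root of its F statistic. The procedure was tested on simulated data in which far fewer genes changed than were called in cWT_SOD1 against cWT. That test therefore does not cover changes as widespread as these. Alternatives were RLE size factors, no count filter, DESeq2 1.42.0, limma 3.58.1 (voom, and log2 FPKM plus 0.1 or 1), fits of fewer libraries, sex as a term and a replicate block. No libraries agreed to within counting noise.

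The members and lists were chosen with earlier results of these data known. All 10 members are named, and from the ligand, receptor, atypical receptor and inducer lists the genes called in the interaction and the receptors of the members, apart from a few genes that are not reported here. Of 167 list entries 166 were matched. From each marker list at most 4 genes are named, besides those in counts of 5 or fewer. Libraries carry no molecular tags in the labels, so intervals cover counting error only. A count ratio uses exact binomial limits at 95%.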

Additional observations from a re-analysis of the deposited data

Results flagged for a closer look

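Among the 40 sets of 4 libraries (10 genes in 4 groups), 3 held a library far from the others by Dixon's criterion, which chance alone gives in about 5% of sets. They were Ccl12 in cKO replicate 4 (1.46 CPM), Cxcl9 in cWT replicate 1 (0.614 CPM) and Cxcl16 in cKO_SOD1 replicate 2 (8.54 CPM).

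The transgene effect differed between the genotypes, by the interaction term of edgeR at an adjusted p under 0.05, for 6 members: Ccl3 (−1.88), Ccl5 (−2.71), Ccl6 (−2.34), Ccl9 (−2.15), Cxcl10 (−2.43) and Cxcl16 (−2.19), all as log2 fold changes. Among other ligands it differed for Ccl8 (−2.27), Ccl11 (−1.82), Cxcl14 (−0.98) and, with the opposite sign, Cx3cl1 (0.74). Ccl8 lost the call without cKO replicate 4 (adjusted p = 0.0505). Among receptors it differed for Ccr1 (−1.90), Cxcr4 (−2.06) and Cx3cr1 (−1.43), and Ccr1 lost the call without cKO replicate 4 (adjusted p = 0.0657). Among atypical receptors it differed for Cxcr7 (−0.65), Ccrl2 (−1.36) and, with the opposite sign, Darc (0.71). In the list of inducers, which also holds the NF-kB inhibitor Nfkbia, it differed for Il1a (−1.69), Nfkb1 (−0.41), Nfkb2 (−1), Rela (−0.50), Relb (−0.61), Nfkbia (−0.80), Irf1 (−0.77) and Jun (−0.85).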

How the results depend on the processing

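Over the alternatives, values of the 10 genes kept direction and side of the threshold in 1282 cases, lost a call in 46, gained one in 14 and changed sign in 21, and the causes were not tested. No called value changed sign. In cKO_SOD1 against cKO, 2 members were called in males alone and 4 in females alone, in place of 7. All genes called there were 1123 (740 higher, 383 lower) in the full fit, 2264 with voom weights (1217 and 1047), 2480 with only the 8 libraries (1235 and 1245), 91 in males, 362 in females and 1150 on log2 FPKM (940 and 210). In cKO against cWT 4 genes were called in the full fit, 17 with DESeq2, 10 with voom weights, 9 with only the 8 libraries, 1 in males and 2 in females. For the interaction, 2863 genes were called in males and 4616 in females, in place of 6949.

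Leaving out 1 library gave 9 to 10 members in cWT_SOD1 against cWT, 5 to 8 in cKO_SOD1 against cKO, 0 to 0 in cKO against cWT, 8 to 10 in cKO_SOD1 against cWT_SOD1 and 4 to 7 for the interaction. Over all genes the ranges were 9541 to 10416, 685 to 1643, 2 to 9, 8146 to 9335 and 6248 to 7654. Same-numbered libraries of different groups correlated above 0.1 in 11 of 24 pairs, among them all 4 of cWT with cKO_SOD1. These correlations do not settle whether the numbers pair the libraries. The numbers are not said to mark a shared litter or day, so the replicate block was kept as an alternative. With the replicate block, 5 members were called in cKO_SOD1 against cKO, where Ccl9 (adjusted p = 0.0642) and Cxcl16 (0.0522) lost their calls. The block left the other counts of members at 10, 0, 9 and 6.

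Sign changes, none of them called, fell on low counts. In cKO against cWT the fits without 1 library ran from −1.83 to 0.10 for Ccl2, −0.08 to 1.13 for Ccl3, −0.85 to 0.72 for Ccl4, −0.15 to 0.82 for Ccl5, −0.59 to 1.66 for Ccl12 and −3.04 to 0.06 for Cxcl9. There females alone gave 0.53 for Ccl2 and −0.04 for Ccl3, and males alone gave 0.66 for Ccl4 and −0.80 for Ccl12. The interaction of Cxcl9 ran from −2.30 to 0.81 without 1 library and was 0.61 in males. Cxcl9 was called in cWT_SOD1 against cWT in 17 of 25 alternatives, not with DESeq2 (adjusted p = 0.0711), only the 8 libraries (0.0532) or males (0.243). For Cxcl10 the rise was 5.72 in edgeR, and in limma 5.40 on log2 FPKM plus 0.1 and 3.57 plus 1. Chemokine counts per marker count, cKO_SOD1 over cWT_SOD1, gave 0.902, 0.739 and 0.536 with other markers, in place of 1.08.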
